A study of Mus musculus with 16 samples.

Results

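The 9 genes described here, Nes, Mcm2, Eomes, Neurod1, Sox4, Sox11, Igfbpl1, Dcx and Tubb3, are commonly used to follow the formation of new neurons in the adult brain. They were taken by name from the 22572 gene names of an mRNA table of mouse hippocampus, and all 9 were found in it. The samples were 16 polyadenylated RNA libraries of hippocampus from male C57BL/6 mice, in 4 groups of 4. WT water mice were wild type and drank regular water, and WT fructose mice were wild type and drank water with 15% fructose by weight per volume. BgnKO water and BgnKO fructose mice carried the Bgn0/- genotype, a loss of the X-linked gene of the matrix proteoglycan biglycan, and had the same 2 drinks. Drinks were given for 6 weeks from 3 months of age, so all groups were adult at collection. The knockout was a germline genotype, present in every cell and from development on. Whether replicate libraries came from separate animals or from pools is not stated in the labels. The p-values therefore reflect library-to-library spread, part of which may be technical.

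In the adult rodent hippocampus, new granule neurons arise in the subgranular zone of the dentate gyrus. Radial glia-like stem cells give rise to dividing progenitors, these become neuroblasts, and the neuroblasts mature into granule neurons over several weeks. The genes mark successive steps: Nes in stem cells and early progenitors, Mcm2 in cells licensed to copy DNA, Eomes in intermediate progenitors, then Neurod1, Sox4, Sox11, Igfbpl1, Dcx and Tubb3 in neuroblasts and young neurons. Several are not restricted to this lineage: Nes is also found in vessel-wall cells, Neurod1 also in mature granule neurons and Tubb3 in neurons in general. In whole hippocampus these cells are rare, and fewer cells of a type cannot be told apart from less RNA per cell.

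RefSeq promoter windows of GRCm38.p6, from 250 bases before to 50 bases after the gene start, were at hand for 8 of the 9 genes. The 4 below are shown because Dcx and Tubb3 are reported targets of Sox11 and Sox4 in neurons, while Sox4 and Neurod1 are transcription factors that passed the test between the fructose groups in some fits. The windows are written 5′ to 3′ on the gene's strand. Capitals mark the SOX core motif ACAANG, read on both strands (CNTTGT on the other), and the E-box CANNTG, the motif class bound by Neurod1. No match of either motif overlapped a match of the other in these windows. The Dcx window is chrX:143933075-143933374 on the minus strand, the Tubb3 window chr8:123411303-123411602 on the plus strand, the Sox4 window chr13:28953650-28953949 on the minus strand and the Neurod1 window chr2:79456587-79456886 on the minus strand.
Dcx: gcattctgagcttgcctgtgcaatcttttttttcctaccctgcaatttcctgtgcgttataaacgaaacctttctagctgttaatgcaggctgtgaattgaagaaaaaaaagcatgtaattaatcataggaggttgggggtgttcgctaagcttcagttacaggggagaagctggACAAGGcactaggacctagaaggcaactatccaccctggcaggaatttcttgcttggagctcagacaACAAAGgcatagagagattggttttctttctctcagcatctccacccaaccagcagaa
Tubb3: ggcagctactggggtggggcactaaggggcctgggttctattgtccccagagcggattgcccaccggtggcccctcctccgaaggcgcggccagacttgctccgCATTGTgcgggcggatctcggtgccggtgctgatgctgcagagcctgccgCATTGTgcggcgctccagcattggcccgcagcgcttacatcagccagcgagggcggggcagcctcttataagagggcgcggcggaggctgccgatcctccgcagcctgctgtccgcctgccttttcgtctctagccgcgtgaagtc
Sox4: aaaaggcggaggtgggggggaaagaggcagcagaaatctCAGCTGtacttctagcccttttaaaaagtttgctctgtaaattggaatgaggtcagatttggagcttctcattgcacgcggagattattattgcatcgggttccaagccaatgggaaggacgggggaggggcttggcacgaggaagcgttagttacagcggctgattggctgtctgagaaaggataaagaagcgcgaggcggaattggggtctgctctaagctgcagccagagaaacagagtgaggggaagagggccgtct
Neurod1: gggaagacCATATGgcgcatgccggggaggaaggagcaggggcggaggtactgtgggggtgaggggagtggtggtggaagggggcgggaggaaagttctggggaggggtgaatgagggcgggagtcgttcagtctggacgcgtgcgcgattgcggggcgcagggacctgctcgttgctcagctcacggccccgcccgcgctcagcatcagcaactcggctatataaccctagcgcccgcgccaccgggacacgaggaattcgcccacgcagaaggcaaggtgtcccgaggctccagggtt
The Dcx window shown held 2 SOX core matches, beginning 75 and 8 bases upstream of the start, and the Tubb3 window held 2, beginning 146 and 96 bases upstream. Another Dcx window, at a different start and not shown, held 1 SOX core match, beginning 20 bases downstream of that start. The Sox4 window held 1 E-box, CAGCTG, 211 bases upstream, and the Neurod1 window held 1, CATATG, 242 bases upstream. The Sox11 and Mcm2 windows held 2 E-boxes each, and the Nes and Eomes windows held neither motif. Both motifs are common: of 32851 mouse windows of this length, 41.2% held a SOX core and 72.3% an E-box. A match describes the letters of the window and is not evidence of binding.

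Values were the FPKM that the authors deposited (fragments per kilobase of transcript, relative to the mapped total), so levels are per length and the number of reads behind them is unknown. In every group replicate 1 differed from the other 3 libraries. Among 432 genes that had loci on both strands, the median opposite-strand share of a gene's FPKM was 3.13 to 4.33% in the 4 libraries of replicate 1 and 17.0 to 22.2% in the other 12. Tests are therefore also given with a term for replicate 1 and over replicates 2 to 4. Bgn FPKM was 4.46 to 7.60 in the 8 BgnKO libraries and 9.94 to 24.2 in 7 of the 8 WT libraries. In the library labelled WT fructose replicate 1 it was 5.42, within the knockout range, whereas Ndufs5, at most 0.216 FPKM in every BgnKO library, was at 14.0 FPKM in it. Every gene of the dentate granule cell and pyramidal cell lists had a value above 0 in some library.

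All 9 genes were above 0 FPKM in all 16 libraries, but their levels spanned a wide range. The mean over 16 libraries was 170.7 FPKM for Tubb3, a neuronal beta-tubulin, and 10.8 FPKM for Neurod1, a proneural transcription factor. It was 5.0 FPKM for Sox4 and 2.97 FPKM for Sox11, SoxC transcription factors of young neurons, 2.48 FPKM for the intermediate filament gene Nes and 1.99 FPKM for the microtubule-binding protein gene Dcx. The lowest were Mcm2 at 1.64 FPKM, the transcription factor gene Eomes at 0.979 FPKM and Igfbpl1, a gene of developing neurons, at 0.897 FPKM. Among neighbours in this order, Tubb3 and Neurod1 did not overlap in any library, nor did Neurod1 and Sox4. The other neighbours overlapped in range, although Sox4 was above Sox11, Dcx above Mcm2 and Mcm2 above Eomes in 15 of 16 libraries each. Of the 12648 genes tested, 97.7% had a lower mean than Tubb3, 51.2% a lower mean than Neurod1 and 9.91% a lower mean than Dcx. The coefficient of variation over the 16 libraries was lowest for Mcm2 (11.4%) and highest for Eomes (53.9%). The filter of a mean of 1 FPKM was passed by 7 of the 9 genes, so Eomes and Igfbpl1 were not in the model across genes. The order rests on summing the loci of a name: on the annotated strand alone the means were 3.34 FPKM for Sox4, 2.44 FPKM for Sox11 and 1.24 FPKM for Nes, which puts Nes below Dcx and Mcm2.

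**Figure D1:**
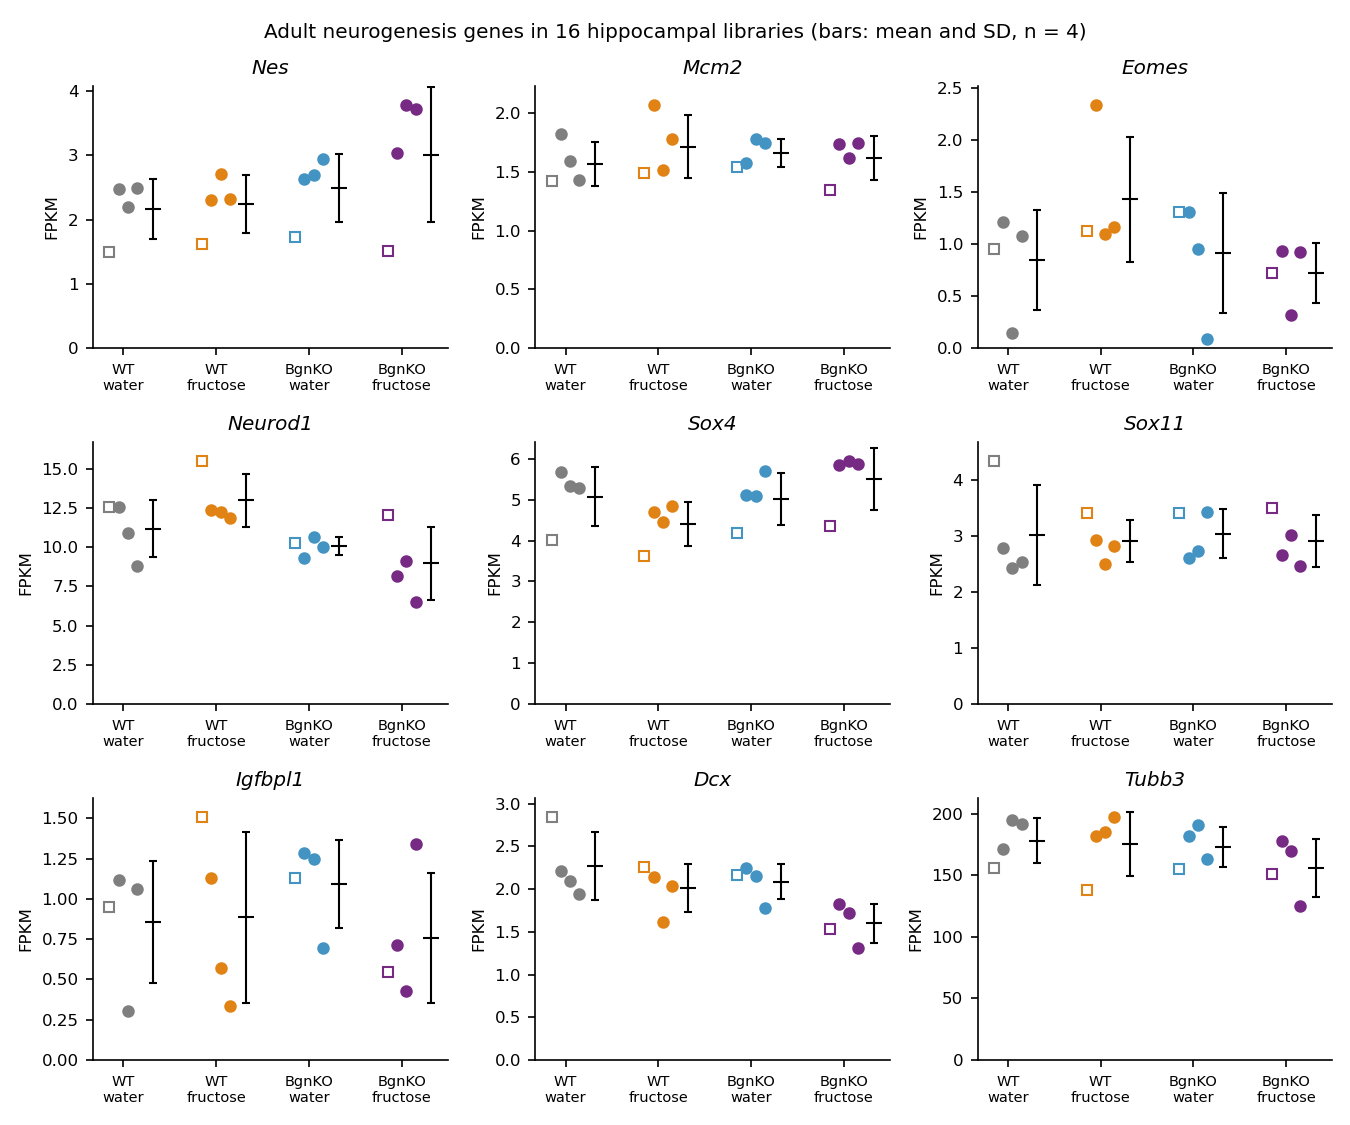
FPKM of the 9 genes in each library (vertical axes, from 0), by group (horizontal axes). Open squares are replicate 1, filled circles replicates 2 to 4, and bars the mean and SD of the 4 libraries. Nes and Sox4 were lowest in replicate 1 of every group, and in replicates 2 to 4 both were highest in BgnKO fructose.

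In the limma model on log2(FPKM + 1) over 16 libraries with Benjamini-Hochberg adjustment, none of the 7 tested genes passed an adjusted p of 0.05 in any of 7 comparisons. Of all genes tested, 3.76% passed in BgnKO against WT on fructose, 0.387% in BgnKO against WT on water, 0.00791% in fructose against water in WT and 0% in fructose against water in BgnKO. At an unadjusted p under 0.05 the counts of the 7 genes were 3, 0, 0 and 1 in that order. The shares above are for the adjusted p. No share of all genes at the unadjusted threshold is given here, so these counts have no background beside them. The largest differences lay between the fructose groups, where Neurod1 was lower and Sox4 and Nes were higher in BgnKO, and these 3 passed once replicate 1 was modelled or left out. With the term for replicate 1, 3 of 7 passed against 17.3% of all genes, and over replicates 2 to 4, 3 of 7 against 10.8%. Averaged over both drinks, BgnKO against WT gave 3 of 7 with the term, against 18% of all genes, and 2 of 7 over replicates 2 to 4, against 12.6%.

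Nes, the stem and progenitor cell filament, measured 1.62, 2.31, 2.71 and 2.33 FPKM in WT fructose replicates 1 to 4 and 1.51, 3.04, 3.78 and 3.72 FPKM in BgnKO fructose. Replicate 1 was lowest in both groups, and the other BgnKO fructose libraries were all above the WT fructose ones, a separation of 3 against 3 that 33.4% of the genes tested showed. On water it measured 1.5, 2.48, 2.20 and 2.49 FPKM in WT and 1.73, 2.63, 2.69 and 2.94 FPKM in BgnKO. Within replicates 2 to 4 the BgnKO libraries were above the WT ones on water too. The exact 2-sided permutation p was 0.1 there, the smallest that 3 against 3 allows, and no share of all genes is given for it. Over 16 libraries the log2 fold of BgnKO against WT on fructose was 0.27 (SE 0.19, limma adjusted p = 0.424), from means of 3.01 ± 1.06 against 2.24 ± 0.455 FPKM (SD, n = 4). Over replicates 2 to 4 the means were 2.45 ± 0.231 FPKM in WT fructose and 3.51 ± 0.413 FPKM in BgnKO fructose (SD, n = 3), and Nes rose by 0.39 on the log2 scale (SE 0.08, limma adjusted p = 0.0207). With the term for replicate 1 the fold of 0.27 had a limma adjusted p of 0.0442.

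Nes, Sox4 and Sox11 each had 2 loci in the table, on the annotated and on the opposite strand, and the values above are their sums. The Nes locus on the opposite strand measured 0.000381 to 0.0471 FPKM in the libraries of replicate 1 and 1.26 to 2.06 FPKM in the others. The Sox4 locus on the opposite strand measured 0.355 to 0.551 and 1.81 to 2.42 FPKM. Replicate 1 is thus low in these sums through the opposite-strand locus. The Nes locus on the annotated strand went the other way, with a median of 1.55 FPKM in replicate 1 and 1.07 FPKM in the others. For Sox11 the opposite-strand locus overlapped between replicate 1 (0.438 to 0.546 FPKM) and the others (0.373 to 0.680 FPKM), and it was the annotated locus that was higher in replicate 1, at 2.96 to 3.79 against 1.86 to 2.77 FPKM. With the annotated-strand locus alone and all 16 libraries, the log2 fold of BgnKO against WT on fructose was 0.34 for Sox4 (SE 0.07, limma adjusted p = 0.0176), which passed in a fit where 3.7% of all genes did, and 0.33 for Nes (SE 0.14, limma adjusted p = 0.195), which did not. On that strand the Sox4 groups did not overlap in 4 against 4 between the fructose groups, at 3.88 ± 0.103 FPKM in BgnKO and 2.87 ± 0.221 FPKM in WT (SD, n = 4), as for 11% of all genes. They did not overlap between WT fructose and WT water either, where the mean on water was 3.33 ± 0.116 FPKM (SD, n = 4) and 1.86% of all genes had such groups. Each of these Sox4 differences had an exact 2-sided permutation p = 0.0286, adjusted over 36 tests to 0.343.

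**Figure D2:**
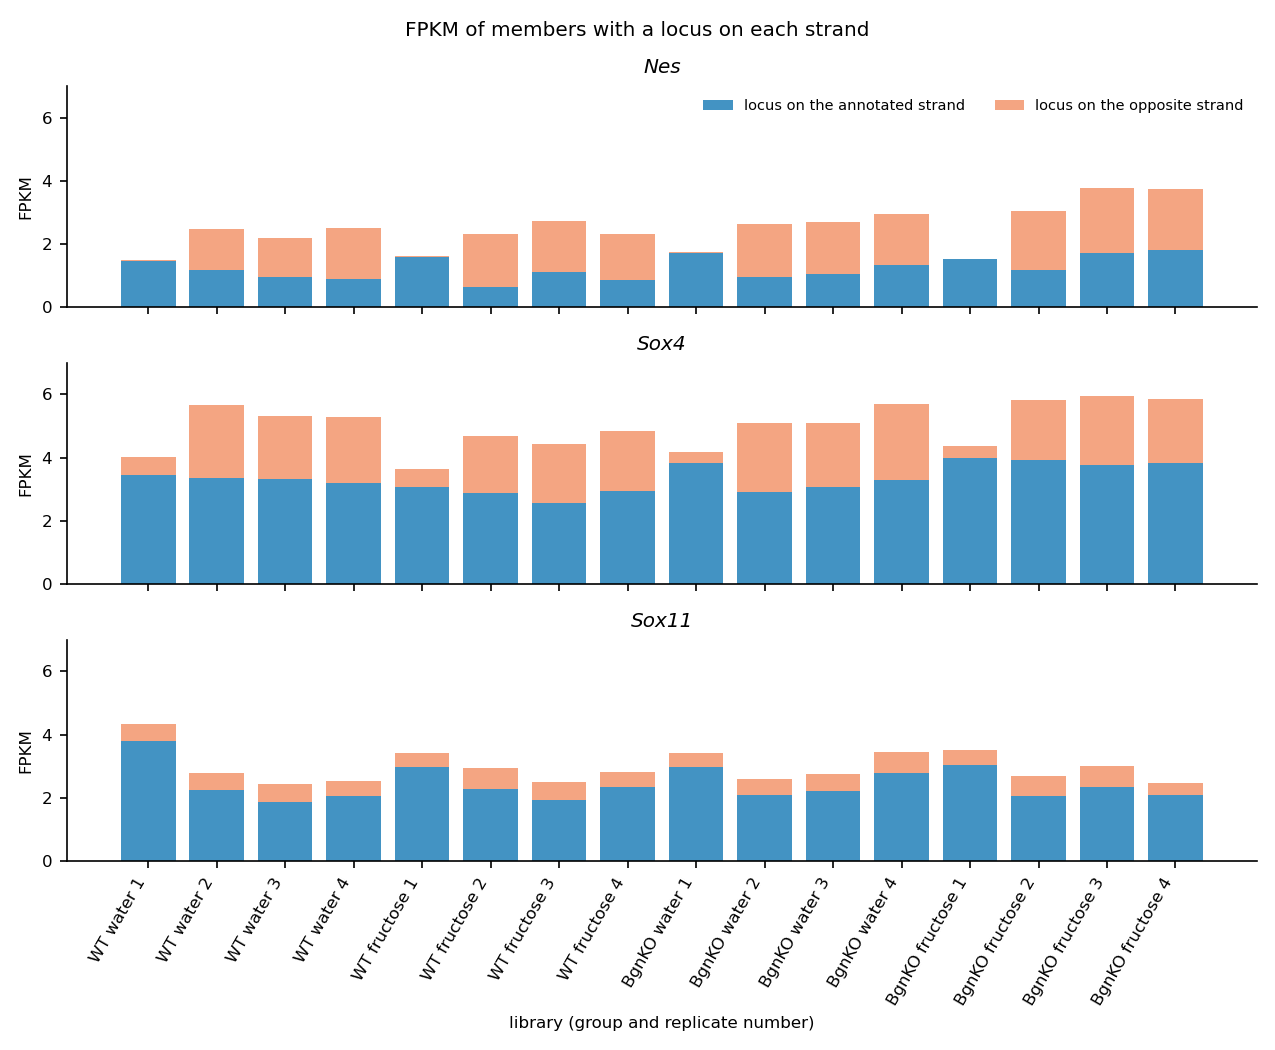
FPKM of the annotated-strand and opposite-strand loci of Nes, Sox4 and Sox11 (stacked bars from 0, vertical axes) in the 16 libraries (horizontal axis, group and replicate). The opposite-strand part of Nes and Sox4 is small in replicate 1 of each group, at most 0.0471 and 0.551 FPKM, and that of Sox11 is of similar height throughout.

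Mcm2, a subunit of the helicase loaded at replication origins, ranged from 1.35 to 2.06 FPKM over all libraries. Its group means were 1.57 ± 0.187 FPKM in WT water, 1.71 ± 0.269 in WT fructose, 1.66 ± 0.122 in BgnKO water and 1.61 ± 0.187 in BgnKO fructose (SD, n = 4). The groups overlapped throughout, and the 95% interval of its log2 fold between the fructose groups ran from -0.23 to 0.13.

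Eomes, a T-box factor of intermediate progenitors, measured 1.12, 2.33, 1.1 and 1.17 FPKM in WT fructose and 0.723, 0.931, 0.318 and 0.927 FPKM in BgnKO fructose. Every BgnKO fructose library was below every WT fructose library, a separation that 11% of the genes tested showed in this comparison. Eomes, under the filter of a mean of 1 FPKM, was not itself among those genes. The means were 0.725 ± 0.288 and 1.43 ± 0.602 FPKM (SD, n = 4), with an exact 2-sided permutation p = 0.0286, the smallest that 4 against 4 allows, and an adjusted p of 0.686 over the 36 exact tests of the 9 genes in 4 comparisons. On water Eomes was scattered, with 0.951, 1.21, 0.144 and 1.07 FPKM in WT and 1.31, 1.31, 0.951 and 0.0896 FPKM in BgnKO. None of the 36 exact tests passed after adjustment. With loci summed, and within these 4 comparisons, Eomes was the only one of the 9 genes whose groups did not overlap in 4 against 4. In the other 3 comparisons 4.01% (BgnKO against WT on water), 1.87% (fructose against water in WT) and 3.99% (fructose against water in BgnKO) of the genes tested had such groups. At levels near 1 FPKM the number of fragments is unknown and may be small.

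Neurod1 measured 15.5, 12.4, 12.2 and 11.8 FPKM in WT fructose replicates 1 to 4 and 12.1, 8.18, 9.09 and 6.50 FPKM in BgnKO fructose. Replicate 1 was highest in both groups, and within replicates 2 to 4 the groups were apart, as for 33.4% of the genes tested. On water it measured 12.5, 12.5, 10.9 and 8.77 FPKM in WT and 10.3, 9.28, 10.7 and 9.98 FPKM in BgnKO, which overlapped. The log2 fold of BgnKO against WT on fructose was -0.51 (SE 0.14, limma adjusted p = 0.0595) over 16 libraries, with means of 8.96 ± 2.33 against 12.97 ± 1.67 FPKM (SD, n = 4) and all 4 BgnKO libraries below the WT mean. With the term for replicate 1 the same fold had a limma adjusted p of 0.00913, and over replicates 2 to 4 Neurod1 fell by 0.57 on the log2 scale (SE 0.12, limma adjusted p = 0.0191). Without BgnKO fructose replicate 1 alone, its log2 fold was -0.65 (limma adjusted p = 0.0122), and without each other library it did not pass. Averaged over both drinks, the log2 fold of BgnKO against WT was -0.32 (SE 0.10, limma adjusted p = 0.0825), in a comparison where 4.99% of all genes passed. The averaged fold had a limma adjusted p of 0.0139 when replicate 1 had its own term.

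Sox4 measured 3.63, 4.70, 4.45 and 4.84 FPKM in WT fructose and 4.36, 5.84, 5.94 and 5.86 FPKM in BgnKO fructose. Replicate 1 was again the lowest of each group, and in replicates 2 to 4 the groups were apart, as for 33.4% of the genes tested. On water it measured 4.01, 5.67, 5.33 and 5.29 FPKM in WT and 4.18, 5.11, 5.08 and 5.70 FPKM in BgnKO. The log2 fold of BgnKO against WT on fructose was 0.26 (SE 0.11, limma adjusted p = 0.195) over 16 libraries and 0.26 (SE 0.05, limma adjusted p = 0.00353) with the term for replicate 1. Over replicates 2 to 4 the means were 4.66 ± 0.202 FPKM in WT fructose and 5.88 ± 0.0503 FPKM in BgnKO fructose (SD, n = 3), and Sox4 rose by 0.28 on the log2 scale (SE 0.06, limma adjusted p = 0.0186). The related Sox11 did not follow: it measured 3.41, 2.92, 2.50 and 2.82 FPKM in WT fructose and 3.50, 2.67, 3.02 and 2.46 FPKM in BgnKO fructose. The 95% interval of the Sox11 log2 fold ran from -0.28 to 0.28, and the difference between the Sox4 and Sox11 folds was not tested.

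Igfbpl1 ranged from 0.301 to 1.51 FPKM, with group means of 0.857 ± 0.377 FPKM in WT water, 0.885 ± 0.531 in WT fructose, 1.09 ± 0.273 in BgnKO water and 0.757 ± 0.405 in BgnKO fructose (SD, n = 4). The ranges of all 4 groups overlapped.

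Dcx, the doublecortin gene of migrating neuroblasts, measured 2.84, 2.21, 2.10 and 1.94 FPKM in WT water and 2.26, 2.14, 1.62 and 2.04 FPKM in WT fructose. In BgnKO it measured 2.16, 2.25, 2.15 and 1.78 FPKM on water and 1.54, 1.83, 1.72 and 1.31 FPKM on fructose. BgnKO fructose had the lowest mean, 1.60 ± 0.226 FPKM, against 2.27 ± 0.394 in WT water, 2.01 ± 0.278 in WT fructose and 2.08 ± 0.206 in BgnKO water (SD, n = 4). Its range overlapped those of WT fructose and BgnKO water. It lay below that of WT water, a pair that differs in both genotype and drink. That pair was not among the comparisons, so no share of all genes is given for it. The log2 fold of BgnKO against WT was -0.08 on water (SE 0.10, limma adjusted p = 1) and -0.21 on fructose (SE 0.10, limma adjusted p = 0.222, 95% interval -0.42 to -0.0048). That of fructose against water was -0.12 in WT (SE 0.10, limma adjusted p = 1) and -0.25 in BgnKO (SE 0.10, limma adjusted p = 0.330, 95% interval -0.46 to -0.04). The comparisons that involve BgnKO fructose share its 4 libraries. Averaged over both genotypes, the log2 fold of fructose against water was -0.18 (SE 0.07, limma adjusted p = 0.407), and averaged over both drinks that of BgnKO against WT was -0.15 (SE 0.07, limma adjusted p = 0.241). Dcx did not pass in any comparison or under any alternative fit.

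Tubb3 measured 138, 182, 185 and 197 FPKM in WT fructose and 151, 178, 170 and 125 FPKM in BgnKO fructose. The groups overlapped through replicate 1, and the log2 fold was -0.17 with a 95% interval of -0.44 to 0.10. Over replicates 2 to 4 they did not overlap, at 188.1 ± 7.94 FPKM in WT and 157.4 ± 28.4 FPKM in BgnKO (SD, n = 3), as for 33.4% of all genes, and the log2 fold was -0.27 (SE 0.12, limma adjusted p = 0.138), which did not pass.

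**Figure D3:**
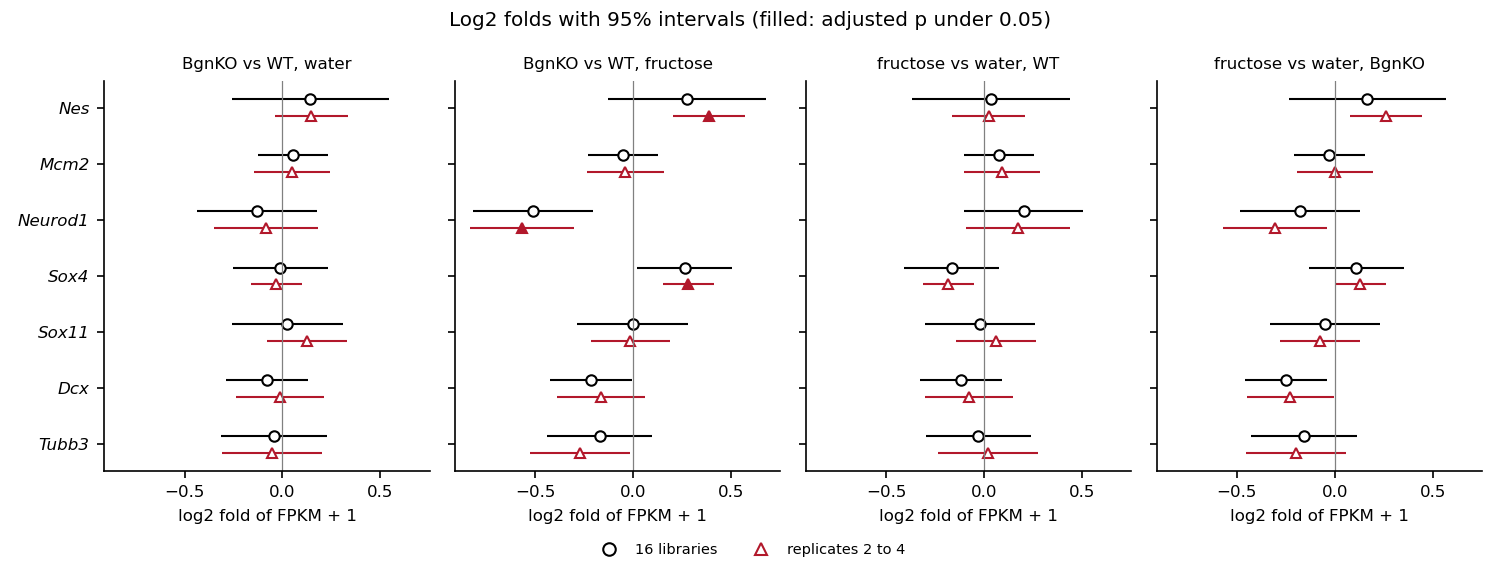
Log2 folds of FPKM + 1 with 95% intervals (horizontal axis) for the 7 tested genes (vertical axis) in 4 comparisons, over 16 libraries (circles) and replicates 2 to 4 (triangles). Filled symbols passed an adjusted p of 0.05: they are Nes (0.39), Neurod1 (-0.57) and Sox4 (0.28) between the fructose groups in replicates 2 to 4.

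The other comparisons held smaller differences. On water the log2 folds of BgnKO against WT over the 7 genes ran from -0.13 to 0.14, with a median of -0.01 beside 0.00 for all genes tested, and 3 of 7 were above 0. For fructose against water they ran from -0.17 to 0.20 in WT and from -0.25 to 0.17 in BgnKO. Their 95% intervals reached -0.44 and 0.54 on water between the genotypes and -0.41 and 0.51 for fructose in WT, so that differences of that size are not excluded. Neurod1, Sox4 and Nes passed on fructose and not on water in some fits, so folds of the interaction are given. The interaction, the fructose effect in BgnKO minus that in WT, was a planned comparison. Its log2 values were -0.38 for Neurod1 (SE 0.20), 0.27 for Sox4 (SE 0.16), 0.13 for Nes (SE 0.27) and -0.13 for Dcx (SE 0.14), each with a limma adjusted p of 0.999. In that comparison 0.00791% of all genes passed. With the term for replicate 1 the Sox4 interaction had an unadjusted limma p of 0.00101 and an adjusted p of 0.615, so a different knockout effect on the 2 drinks was not shown for any of these genes.

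Other genes of the same steps, from lists that hold none of the 9 genes, were followed between the fructose groups. Of 22 tested genes of radial glia-like stem cells, 1 rose and none fell over 16 libraries, where 3.76% of all genes passed. A log2 fold above 0 was seen in 20 of 22, and the median was 0.21 beside -0.01 for all genes tested. The gene that rose was Sox2, a stem cell transcription factor also expressed in astrocytes, from 19.4 ± 2.99 to 27.2 ± 3.30 FPKM (SD, n = 4, log2 fold 0.47, limma adjusted p = 0.0493), a call lost without any of 10 libraries (limma adjusted p up to 0.151), namely WT water replicates 1 and 3, WT fructose 2, 3 and 4, BgnKO water 1, 3 and 4, and BgnKO fructose 3 and 4. For Sox9, a glial and stem cell transcription factor, the log2 fold was 0.54 (limma adjusted p = 0.0547) and for Lfng, a modifier of Notch signalling, 0.41 (limma adjusted p = 0.0841). Of the 22, 4 rose with the term for replicate 1, where 17.3% of all genes passed, and 2 rose over replicates 2 to 4, where 10.8% did. These shares are near those of all genes. Astrocyte markers, described below, also moved upward between these groups, and the part of astrocytes in this list was not tested.

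Of 25 proliferation genes found, 14 were below the filter and none of the 11 tested passed over 16 libraries, with a median log2 fold of -0.03. The 3 with the smallest p were E2f1, a cell cycle transcription factor, at -0.27 (limma adjusted p = 0.107), and the helicase subunit genes Mcm5 at -0.20 (limma adjusted p = 0.135) and Mcm7 at 0.19 (limma adjusted p = 0.146). In the fit with the term for replicate 1, 2 of 11 fell, and over replicates 2 to 4, 1 fell, again near the 17.3% and 10.8% of all genes. On water E2f1 was at 2.89 ± 0.301 FPKM in BgnKO and 3.96 ± 0.299 FPKM in WT (SD, n = 4, log2 fold -0.35, limma adjusted p = 0.194). Pcna, the DNA polymerase clamp, was at 11.9 ± 1.73 FPKM in BgnKO water and 15.0 ± 2.08 FPKM in WT water (SD, n = 4, log2 fold -0.31, limma adjusted p = 0.458). It passed on water with the term for replicate 1 (limma adjusted p = 0.0321), where 0.996% of all genes did, and not over replicates 2 to 4 (limma adjusted p = 0.0794).

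Of 34 tested genes of neuroblasts and immature granule neurons, none passed over 16 libraries. The median log2 fold was -0.10 and 24 of 34 were below 0. Map1b, a microtubule-associated protein of growing axons, was at 93.9 ± 12.8 FPKM in BgnKO fructose and 132.0 ± 19.9 FPKM in WT fructose (SD, n = 4, log2 fold -0.48, limma adjusted p = 0.0506). For Stmn1, a tubulin-binding protein of growing cells, the log2 fold was -0.59 (limma adjusted p = 0.0590), and for the transcription factor gene Nfia 0.20 (limma adjusted p = 0.0958). Modelling replicate 1, 2 of the 34 rose and 3 fell, and over replicates 2 to 4, 3 fell, where 17.3% and 10.8% of all genes passed. Many of these genes are also expressed in mature neurons.

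Of 27 tested genes of niche signals, 1 rose over 16 libraries, near the 3.76% of all genes that passed. It was Bmpr1a, a receptor of bone morphogenetic proteins, from 13 ± 1.47 to 17.3 ± 1.24 FPKM (SD, n = 4, log2 fold 0.39, limma adjusted p = 0.0307). The call was lost when replicate 3 or 4 of BgnKO fructose, or replicate 2, 3 or 4 of WT fructose, was left out (limma adjusted p up to 0.106). For Mdk, a heparin-binding growth factor, the log2 fold was 0.58 (limma adjusted p = 0.0711) and for Ptch1, the Hedgehog receptor, 0.44 (limma adjusted p = 0.0853). The median of the 27 was 0.20 and 20 were above 0. Once replicate 1 had its own term, 9 of 27 rose and 1 fell, and over replicates 2 to 4, 5 rose and 2 fell, beside 17.3% and 10.8% of all genes that passed. On water none of the genes of the 4 lists passed over 16 libraries, and with the term for replicate 1 Pcna was the only gene of them that did.

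**Figure D4:**
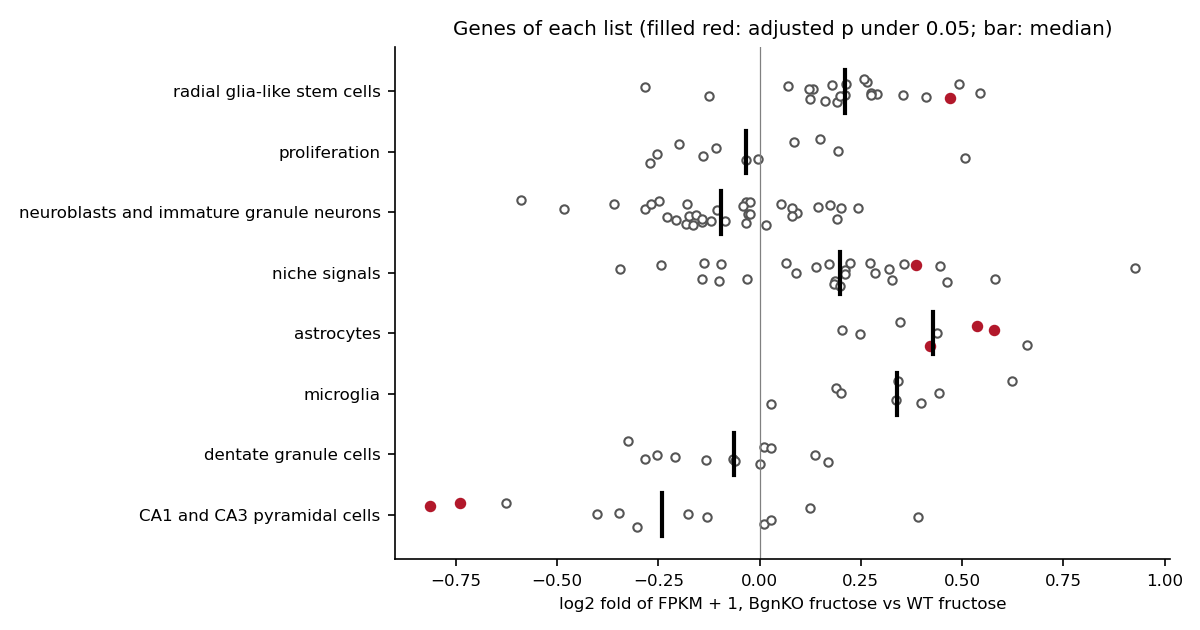
Log2 folds of FPKM + 1 of BgnKO fructose against WT fructose over 16 libraries (horizontal axis) for each tested gene of 4 neurogenesis lists and 4 marker lists (vertical axis). Red points passed an adjusted p of 0.05 and bars are list medians, which were 0.21 for radial glia-like stem cells, -0.10 for neuroblasts, 0.43 for astrocytes and -0.24 for pyramidal cells.

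Markers of other cells moved between the same fructose groups. Of 8 astrocyte genes, 8 had a log2 fold above 0 and 3 rose, where 3.76% of all genes passed, and their summed level was 1126 to 1227 FPKM in WT fructose and 1259 to 1748 FPKM in BgnKO fructose. Of 8 microglia genes, 8 were above 0 and none passed, with sums of 138 to 166 and 181 to 234 FPKM. Of 12 pyramidal cell genes, 2 fell, with sums of 322 to 357 and 265 to 339 FPKM, while of 12 dentate granule cell genes none passed, with sums of 171 to 232 and 149 to 225 FPKM. Choroid plexus and ependyma genes summed to 254 to 4485 FPKM in WT fructose and 2664 to 9230 FPKM in BgnKO fructose, 12 of 12 above 0 and none passing. Endothelial and pericyte genes, 7 of 11 above 0 and none passing, summed to 135 to 179 and 125 to 227 FPKM. Genes of subventricular zone and olfactory neuroblasts, 7 of 7 tested below 0 and none passing, summed to 39.9 to 51.3 and 31.1 to 44.0 FPKM. The count of astrocyte genes that passed ran from 0 to 5 when each library was left out in turn, and was 0 without WT fructose replicate 2, 3 or 4 and also without replicate 3 or 4 of BgnKO fructose. It was 1 without WT water 2, BgnKO water 2 or the library labelled WT fructose replicate 1, and 5 without BgnKO water 4. Meningeal genes, 8 of 8 above 0 and none passing over 16 libraries, though 5 without BgnKO fructose replicate 1, summed to 19.6 to 86.1 and 39.8 to 114.0 FPKM. Of all genes tested, 146 to 942 passed between the fructose groups when each library was left out in turn. The astrocyte and meningeal counts thus come from fits with different shares of all genes passing. The share in each single fit is not given here, so these counts have no background of their own. In the lists of oligodendrocyte precursors, striatum and Cajal-Retzius cells no gene passed either, and no marker of any list was at 0 in all libraries. The part of these cell types in the differences of Nes, Sox4, Neurod1 and the lists was not tested.

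**Figure D5:**
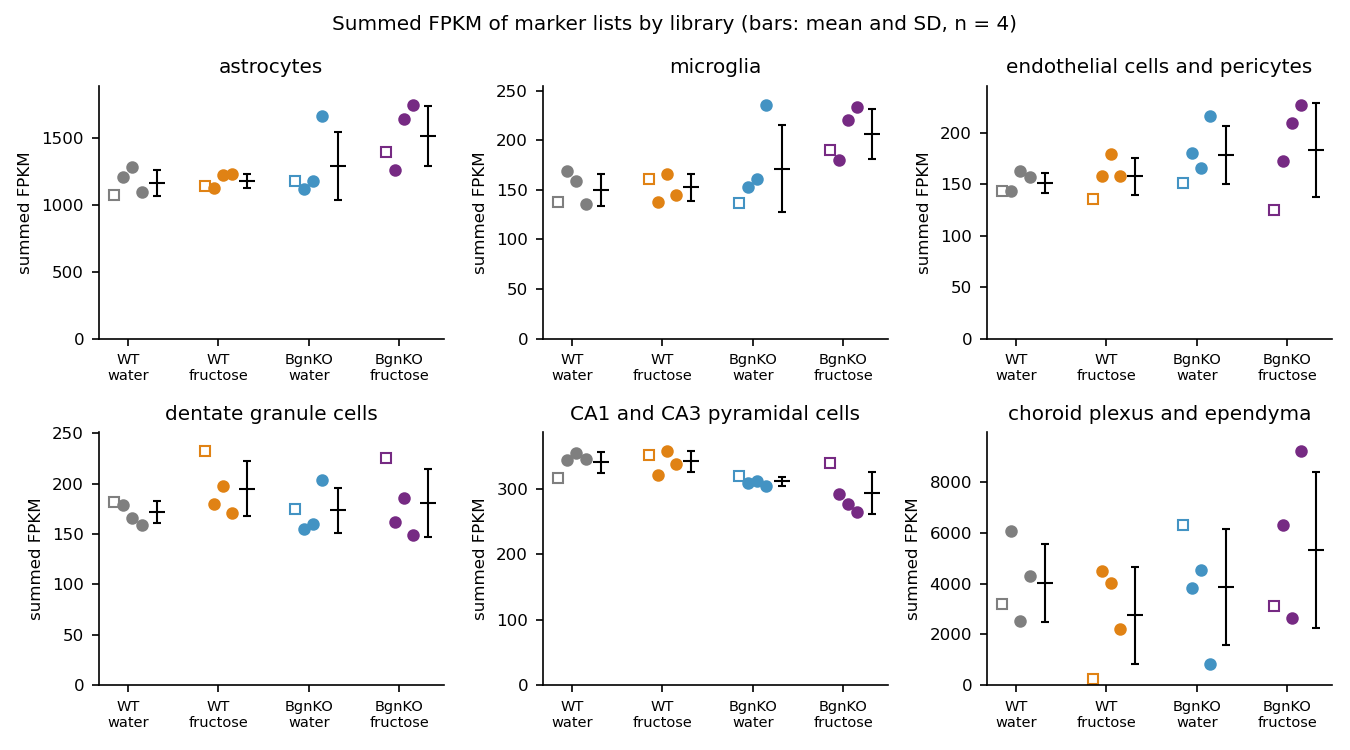
Summed FPKM of 6 marker lists in each library (vertical axes, from 0) by group (horizontal axes). Open squares are replicate 1, filled circles replicates 2 to 4, and bars the mean and SD of 4 libraries. The astrocyte and microglia sums of BgnKO fructose lie above those of WT fructose in every library, and the choroid plexus sum varies most, from 254 to 9230 FPKM over the fructose libraries.

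Over the 12 libraries of replicates 2 to 4, which span the same groups, the genes whose log2(FPKM + 1) was most like that of Dcx, of 12641 genes ranked, included Bag4, Usp45, Xkr4 and Fbxo11. Pearson's r with Dcx was 0.972 for Bag4, 0.969 for Usp45, 0.967 for Xkr4 and 0.966 for Fbxo11. Over all 16 libraries r was 0.627, 0.872, 0.937 and 0.858 for the same genes, and of these 4 Xkr4 alone was also among the 5 highest there. Among the 9 genes themselves, the strongest relation to Dcx was that of Nes, with Pearson's r of -0.77 and Spearman's rho of -0.66 (n = 12, permutation p = 0.00412 for r, adjusted over 36 pairs 0.0742 for r and 0.164 for rho). Without the 2 libraries farthest from the Dcx median r was -0.75, and with group means removed it was -0.72. None of the 36 pairs passed after adjustment.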

How the data were processed

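Per the labels' protocols, polyadenylated RNA of hippocampus was copied with random hexamers, and run on a HiSeq instrument, with demultiplexing by CASAVA 1.8.2. TopHat, Bowtie, Cufflinks and Cuffdiff were used with build mm10, per the submitters' processing notes. Their versions, annotation and strand setting are not given in the sources used here. The values are FPKM per locus, deposited by the authors for 16 libraries, with no filter stated. FPKM carries no depth: a common step of whole reads was seen in 2.82 to 4.01% of low loci in replicate 1 and 8.20 to 16.5% in the others, so read numbers could not be rebuilt and counting errors are not given. Of 27670 loci, 4269 without a gene name were left out. No per-sample column was left unused (0).

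Loci of the same name were summed. The strand of a locus was read from its place among its neighbours in the table, which matched the annotation for 99.4% of 19786 genes with 1 locus. limma 3.58.1 in R 4.3.3 was fitted to log2(FPKM + 1) with a trended variance prior, 4 group means and no block, for 12648 genes whose mean reached 1 FPKM. Folds on this scale understate changes of low genes. Benjamini-Hochberg adjustment ran over all genes tested, with a threshold of 0.05. Single levels were compared by exact 2-sided permutation of FPKM (scipy 1.17.1), and correlations by 100000 permutations. The script was tested on simulated data.

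The genes and lists were chosen with earlier results of these data known. The named-gene rule gives each of the 9 genes by library, fold, SE and adjusted p for Dcx and for genes with an unadjusted p under 0.05, for each list the 3 genes of smallest p, and the 5 genes most like Dcx, of which 1 is not reported here. Folds of Nes, Mcm2, Sox11, Tubb3 and the interaction were added after their values were seen. For fructose against water, deviations of same-numbered libraries correlated by 0.12 to 0.70 in WT and 0.20 to 0.61 in BgnKO. This rests on replicate 1, since within replicates 2 to 4 the correlations were 0.0032 to 0.14 and -0.04 to 0.31. Alternatives were another pseudocount, filter, scaling, variance prior, replicate block, locus choice, a term for replicate 1 and leaving out libraries.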

Additional observations from a re-analysis of the deposited data

Results flagged for a closer look

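In 3 of the 36 sets of 4 libraries (9 genes in 4 groups), a library lay far from the other members of its group, past the 95% critical value of Dixon's ratio of the gap to the range. Chance alone flags about 1 in 20 groups. Sox4 was at 4.36 FPKM in BgnKO fructose replicate 1 and at 5.84 to 5.94 FPKM in the others of that group. Neurod1 was at 15.5 FPKM in the library labelled WT fructose replicate 1 and at 11.8 to 12.4 FPKM in the others. Eomes was at 2.33 FPKM in WT fructose replicate 2 and at 1.1 to 1.17 FPKM in the others. The Sox4 and Neurod1 libraries are both replicate 1.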

How the results depend on the processing

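Over 16 libraries 0 of the 7 genes tested passed between the fructose groups. The count was 3 with the replicate block, 3 with the term for replicate 1, 3 over replicates 2 to 4, 1 with quantile normalization, 1 with the locus of the highest mean, 1 with the annotated-strand locus alone and 3 with that locus over replicates 2 to 4. For BgnKO against WT averaged over drinks it was 0, and 3 with the replicate block, 3 with the term for replicate 1, 2 over replicates 2 to 4 and 1 with the annotated-strand locus over replicates 2 to 4. Leaving out each library in turn gave 0 to 1 in both comparisons, with Neurod1 passing only without BgnKO fructose replicate 1 (limma adjusted p = 0.0122 on fructose, range over the libraries left out 0.0122 to 0.191). Both annotated-strand settings were chosen after seeing the data. With the annotated-strand locus alone, 466 of all genes passed between the fructose groups. No count of all genes is given here for quantile normalization or the locus of the highest mean. None is given for the annotated-strand locus over replicates 2 to 4 either, so the calls in these fits have no background beside them. In the other 5 comparisons the count stayed at 0 in all alternatives run. Of all genes, 475 passed between the fructose groups, 2483 with the replicate block, 2190 with the term for replicate 1, 1374 over replicates 2 to 4, 313 with a filter of 5 FPKM, 88 when only the 2 groups were fitted, 137 without BgnKO fructose replicate 4 and the library labelled WT fructose replicate 1, and 146 to 942 without each library in turn. Averaged over drinks 631 passed, 2508 with the replicate block, 2279 with the term, 1597 over replicates 2 to 4, 414 with the filter of 5 FPKM and 383 to 1062 without each library in turn. Between genotypes, same-numbered libraries correlated by -0.04 to 0.69 on water and 0.09 to 0.75 on fructose, and not above 0.1 in every pair of either. The highest value was that of replicate 1 in both, whose libraries also share a low opposite-strand share, and a pairing of the other numbers is not shown. The replicate block moved no member call in the comparisons of fructose against water. Of 1172 refits of 40 log2 folds, 1086 kept direction and call, 63 gained and 22 lost the call, and 1 changed sign: the Nes interaction was -0.060 without that same pair of libraries. It was 0.02 to 0.34 without each library in turn. The causes were not tested. Depth is unknown, so the counting error of low genes cannot be given.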
